A study of Mus musculus with 19 samples.

Results

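The comparison described here set 6 organoid lines grown from ducts of PanIN-bearing mouse pancreas against 7 lines grown from normal ducts, out of 19 lines profiled by RNA-seq. Both groups were taken whole from the labels, and 12500 of 29861 genes in the deposited table were tested, those with at least 1 TPM in at least 6 of the 19 lines. TPM is the share of a line's transcripts that a gene accounts for, on a scale with a fixed sum. The normal lines came from ducts of wild-type mice whose pancreas was normal on histology. The PanIN lines came from mice in which Pdx1-Cre, a recombinase active in pancreatic progenitors and so in more than the duct lineage, had switched on an allele that is not reported here. All mice had the C57B6/J background, and the labels give no age. The labels name ducts of PanIN-containing pancreas and no single lesions, so a PanIN line is not known to derive from lesion cells alone. Every line was kept as organoids in Matrigel, a basement membrane gel, in 1 medium. It contained EGF, FGF-10, R-spondin, noggin, gastrin, nicotinamide, N-acetylcysteine and A83-01, an inhibitor of TGF-beta type I receptors. The remaining 6 lines came from adenocarcinomas of mice that also carried a Cre-activated Trp53 R172H allele. They shared the fit. Their levels are cited only beside some named genes, all of them genes in which tumor lines differed from PanIN lines.

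Pancreatic intraepithelial neoplasia (PanIN) is the most common precursor of pancreatic ductal adenocarcinoma. In PanIN the flat cuboidal duct epithelium becomes tall and mucin-filled and takes on genes of the stomach lining. Constant signalling through the RAF, MEK and ERK kinases drives the lesion, while p53, a transcription factor that halts or kills stressed cells, and NRF2, the regulator of antioxidant and detoxifying enzymes, are both known to act in its progression. Cultured duct organoids are grown without the stroma and immune cells that surround PanIN in the animal, so their RNA should come mainly from the epithelium. Low levels of some markers of other cells are given below.

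At an adjusted p below 0.05 (limma on log2(TPM + 1), Benjamini-Hochberg over all tested genes), 847 of 12500 genes were called, which is 6.78% of those tested. Of these, 387 (3.10%) were higher and 460 (3.68%) lower in PanIN lines, and 86 and 103 of them changed at least 2-fold. The balance turned with the scaling: median-of-ratios scaling gave 507 higher and 417 lower, and quantile normalization 456 higher and 382 lower. Lists of genes are described below by these calls, beside the 3.10% and 3.68% over all genes and the median log2 difference of all genes, -0.03. In 381 genes (3.05%) every PanIN line lay above or below every normal line, 157 of them higher (1.26%) and 224 lower (1.79%). Leaving out PanIN 5 lowered the number of calls to 496, the fewest among the 13 fits that each left out 1 line. Identifiers in the column names fall into 3 series with both groups in each, and the labels do not say what they mark. In series 2, PanIN 4 was the only PanIN line, beside normal 10 and normal 11. PanIN 1 to 3 were female and of the first series while PanIN 4 to 6 were male and of the other series, so sex and series cannot be told apart among PanIN lines. Of the normal lines, normal 7 and normal 10 were male and the others female. In limma's test for a PanIN effect that differed between sexes, 0 of 12500 genes passed at an adjusted p below 0.05 and 679 at an unadjusted p below 0.05. Duct markers were present in all 13 lines: Krt19 lay between 802 and 1493 TPM, and Epcam and Sox9 were detected in each. Most markers that define other cells were at or near 0. Ptf1a (acinar), Ins1, Ins2 and Gcg (islet), Col3a1 (fibroblast), Kdr (endothelium) and Cd3e (T cell) were listed at 0 in every line. Exceptions were the acinar gene Cela1, at 0.93 to 1.94 TPM over the 13 lines, and the macrophage gene Csf1r, given with host defence.

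**Figure D1:**
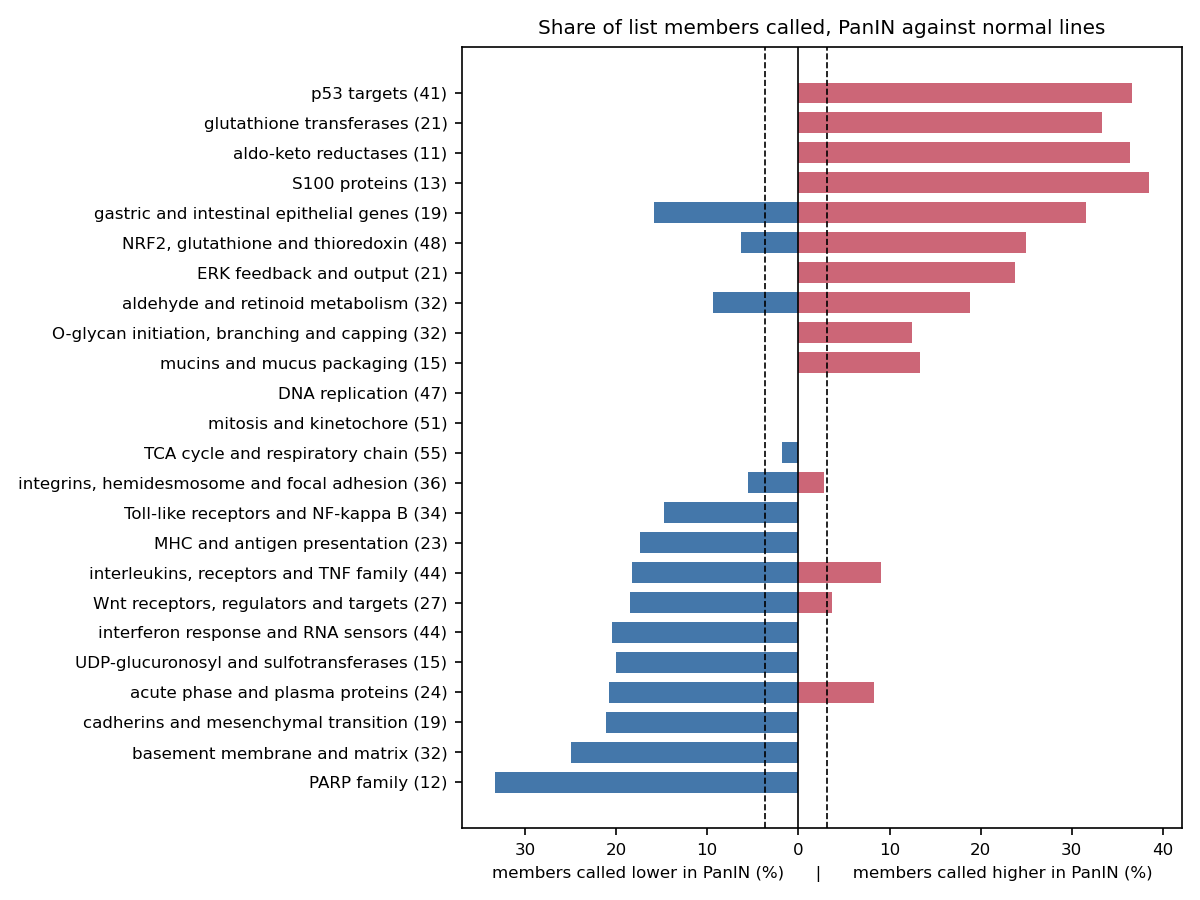
Share of the tested members called higher (right) or lower (left) in PanIN lines, for gene lists and families selected from the 57 lists and 62 families. The number of tested members stands after each name. Dashed lines mark the shares over all 12500 tested genes, 3.10% higher and 3.68% lower. Families not drawn include the protocadherins, of which 3 of 7 tested rose and none fell. The p53 targets and glutathione transferases extend far to the right with no member called lower, the PARP family and matrix genes far to the left with no member called higher.

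Growth factor signalling was followed from ligands to targets. ERK signalling is read in the RNA through genes it switches on, among them its own inhibitors. In the list of ERK feedback and output genes, 5 of 21 tested members rose (23.8%, against 3.10% of all genes) and none fell, and the median member differed by 0.26. Ccnd1, the cyclin that takes cells out of G1, ran from 316 to 513 TPM (median 418) in normal lines and from 584 to 758 TPM (median 691) in PanIN lines. The groups did not overlap, and the gene rose 1.64-fold (log2 change 0.71, SE 0.11, adjusted p = 0.000404). Tumor lines lay below PanIN lines, at 484 ± 51.4 TPM (log2 difference from PanIN lines -0.49, SE 0.11, adjusted p = 0.0341). Ccnd2, the second D-type cyclin, ran from 88.4 to 169.6 TPM (median 100.1) in normal lines and from 197 to 328 TPM (median 265) in PanIN lines and rose 2.36-fold (log2 change 1.24, SE 0.15, adjusted p = 0.000126), again with no overlap. Hmga2, a chromatin protein of embryonic and tumor cells, rose from 4.15 ± 1.9003 to 10.2 ± 2.12 TPM (log2 change 1.18, SE 0.19, adjusted p = 0.000944; mean ± SD here and below, n = 7 and 6). Emp1, an epithelial membrane protein, rose 2.7-fold (adjusted p = 0.00746), and its lowest PanIN line stood above its highest normal line. Dusp6, the phosphatase that removes ERK's activating phosphates, rose from 128 ± 31.9 to 193 ± 28.7 TPM (adjusted p = 0.0108), with overlapping groups. Spry2, the remaining riser of the list, lost its call in 11 of 13 fits that each left out 1 line (adjusted p up to 0.102, without PanIN 1). Some other members of the feedback loop were not called. Dusp1, a phosphatase induced within minutes of stimulation, stood at 50.2 ± 13.4 TPM in normal and 42.6 ± 11.5 TPM in PanIN lines, and Spred1, an inhibitor of RAF activation, at 50.4 ± 7.69 TPM in normal and 65.1 ± 4.18 TPM in PanIN lines.

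Upstream of these kinases, the EGF receptor family had 1 call among 12 tested members. Tgfa, which encodes the EGF receptor ligand TGF-alpha, ran from 31.6 to 50.2 TPM (median 40.1) in normal lines and from 62.2 to 103 TPM (median 79.2) in PanIN lines. All PanIN lines lay above all normal lines, and the rise of 2-fold held its call in each of the 26 alternative fits (log2 change 1.00, SE 0.14, adjusted p = 0.000288). The receptor gene Egfr stood at 64.3 ± 23.4 TPM in normal and 37.95 ± 9.296 TPM in PanIN lines and did not pass the test (adjusted p = 0.0525). Among receptors and ligands of the FGF, MET, PDGF and related families, 3 of 17 rose and 4 fell, 2 without PanIN 5 or without PanIN 6. Fgfbp1, a secreted protein that releases FGFs from the matrix, rose from 84.98 ± 47.5 to 187 ± 40.5 TPM (adjusted p = 0.0142), and Fgf1 rose from 1.59 ± 0.786 to 4.04 ± 1.07 TPM (adjusted p = 0.0035). Fgfr2, whose epithelial form binds the FGF-10 in the medium, stood at 108 ± 12.97 TPM in normal and 103 ± 15.6 TPM in PanIN lines and was not called. The low-level receptor kinases Ret and Tyro3 fell: Ret went from 1.35 ± 0.344 to 0.338 ± 0.136 TPM (adjusted p = 0.000236) and Tyro3 from 2.74 ± 0.792 to 1.42 ± 0.501 TPM (adjusted p = 0.0178).

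The Wnt pathway, which R-spondin amplifies by keeping Frizzled receptors at the cell surface, had 5 falls and 1 rise among 27 tested members (median -0.11). The number of falls was 3 when normal 6, normal 7, normal 11, PanIN 4, PanIN 5 or PanIN 6 was left out. The ligand gene Wnt7a ran from 3.8 to 13.7 TPM (median 5.22) in normal lines and from 0.81 to 3.46 TPM (median 1.19) in PanIN lines, with no overlap, and fell 3.04-fold (log2 change -1.60, SE 0.27, adjusted p = 0.00133). Within the PanIN group Wnt7a was highest in PanIN 3. The receptors Fzd1 and Fzd3 fell as well, Fzd1 from 9.37 ± 3.26 to 4.99 ± 1.23 TPM (adjusted p = 0.00869) and Fzd3 from 4.77 ± 0.847 to 2.43 ± 1.31 TPM (adjusted p = 0.018). Axin2, a direct target that feeds back on the pathway, fell from 9.75 ± 8.34 to 2.44 ± 1.501 TPM (adjusted p = 0.0416) but lost its call in 8 of 13 fits that each left out 1 line (adjusted p up to 0.111, without PanIN 5). Ctnnb1, the gene of beta-catenin, stood at 1021 ± 111 TPM in normal and 886 ± 138 TPM in PanIN lines and was not called.

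In the TGF-beta and BMP list, 2 of 31 members rose and 3 fell. The ligand genes Tgfb2 and Inhba, the latter encoding the activin A subunit, fell: Tgfb2 went from 2.92 ± 0.991 to 0.985 ± 0.49001 TPM (adjusted p = 0.00223) and Inhba from 6.07 ± 3.57 to 1.47 ± 0.663 TPM (adjusted p = 0.00282). Id3, a target of BMP signalling that blocks basic helix-loop-helix factors, ran from 3.27 to 41.2 TPM (median 8.28) in normal lines and from 28.9 to 118 TPM (median 42.9) in PanIN lines and rose 4.04-fold (log2 change 2.01, SE 0.47, adjusted p = 0.0121), with overlap between the groups. The log2 change was 2.82 among female and 0.40 among male lines (limma interaction, unadjusted p = 0.0106, adjusted p = 0.870 over all genes). Among male lines, normal 7 and normal 10 were the only normal ones. Its relatives Id1, at 113 ± 48.2 TPM in normal and 155 ± 62.3 TPM in PanIN lines, and Id2, at 551 ± 85.03 TPM in normal and 609.6 ± 166 TPM in PanIN lines, were not called. Noggin, a BMP antagonist, and A83-01 were in the medium of all lines. Gdf15, the other riser, is a stress-induced ligand of this superfamily and is given with the p53 targets. Among Notch genes, 1 of 16 tested was called, the receptor Notch1, which rose from 2.66 ± 1.39 to 5.02 ± 0.766 TPM (adjusted p = 0.0112).

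The p53 targets had rises and no fall. Of 41 tested targets, 15 rose (36.6%), none fell, and the median member was higher by 0.35 on the log2 scale. Leaving out 1 line at a time gave 14 to 18 rises and no fall. The median was 0.26, 0.54 and 0.33 within the 3 identifier series. The value of series 2 sets PanIN 4 alone against normal 10 and normal 11. Ccng1, a cyclin that takes part in p53 feedback, ran from 268 to 422 TPM (median 374) in normal lines and from 522 to 769.6 TPM (median 584) in PanIN lines. The groups did not overlap, and Ccng1 rose 1.65-fold (log2 change 0.72, SE 0.12, adjusted p = 0.00121). Tumor lines stood at 361 ± 73.1 TPM (log2 difference from PanIN lines -0.76, SE 0.13, adjusted p = 0.00368). The adhesion and death gene Perp ran from 109 to 135 TPM (median 127) in normal lines and from 171 to 242 TPM (median 206) in PanIN lines, again without overlap, and rose 1.63-fold (log2 change 0.70, SE 0.09, adjusted p = 0.000153). Gdf15 rose from 19.8 ± 4.82 to 47.4 ± 11.8 TPM (adjusted p = 0.000544), and Psrc1, which encodes a spindle protein, rose from 66.6 ± 10.4 to 104 ± 11.2 TPM (adjusted p = 0.00062). Ercc5, an endonuclease of nucleotide excision repair, rose from 20.1 ± 2.59 to 28.7 ± 3.37 TPM (adjusted p = 0.00291). Dcxr, a carbonyl reductase, rose from 45.01 ± 6.21 to 74.7 ± 7.04 TPM (adjusted p = 0.000176), and Eda2r, a receptor of the TNF family, rose from 41.1 ± 10.3 to 63.7 ± 5.72 TPM (adjusted p = 0.014). In each of these 5 genes every PanIN line exceeded every normal line. Not all targets were higher: 31 of the 41 had a higher mean in PanIN lines and 10 a lower one. Plk2, a polo-like kinase, stood at 159 ± 29.8 TPM in normal and 146 ± 18.7 TPM in PanIN lines and was not called. In tumor lines Gdf15 stood at 20.4 ± 5.95 TPM and Eda2r at 25.3 ± 4.23 TPM, both below PanIN lines in the same fit (log2 difference from PanIN lines -1.19, SE 0.19, adjusted p = 0.00352 for Gdf15, and log2 difference from PanIN lines -1.31, SE 0.16, adjusted p = 0.000526 for Eda2r). The comparison of tumor with PanIN lines shares the PanIN lines with the main comparison. Tumor levels of the other p53 targets are not given here, so Ccng1, Gdf15 and Eda2r do not stand for the list.

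**Figure D2:**
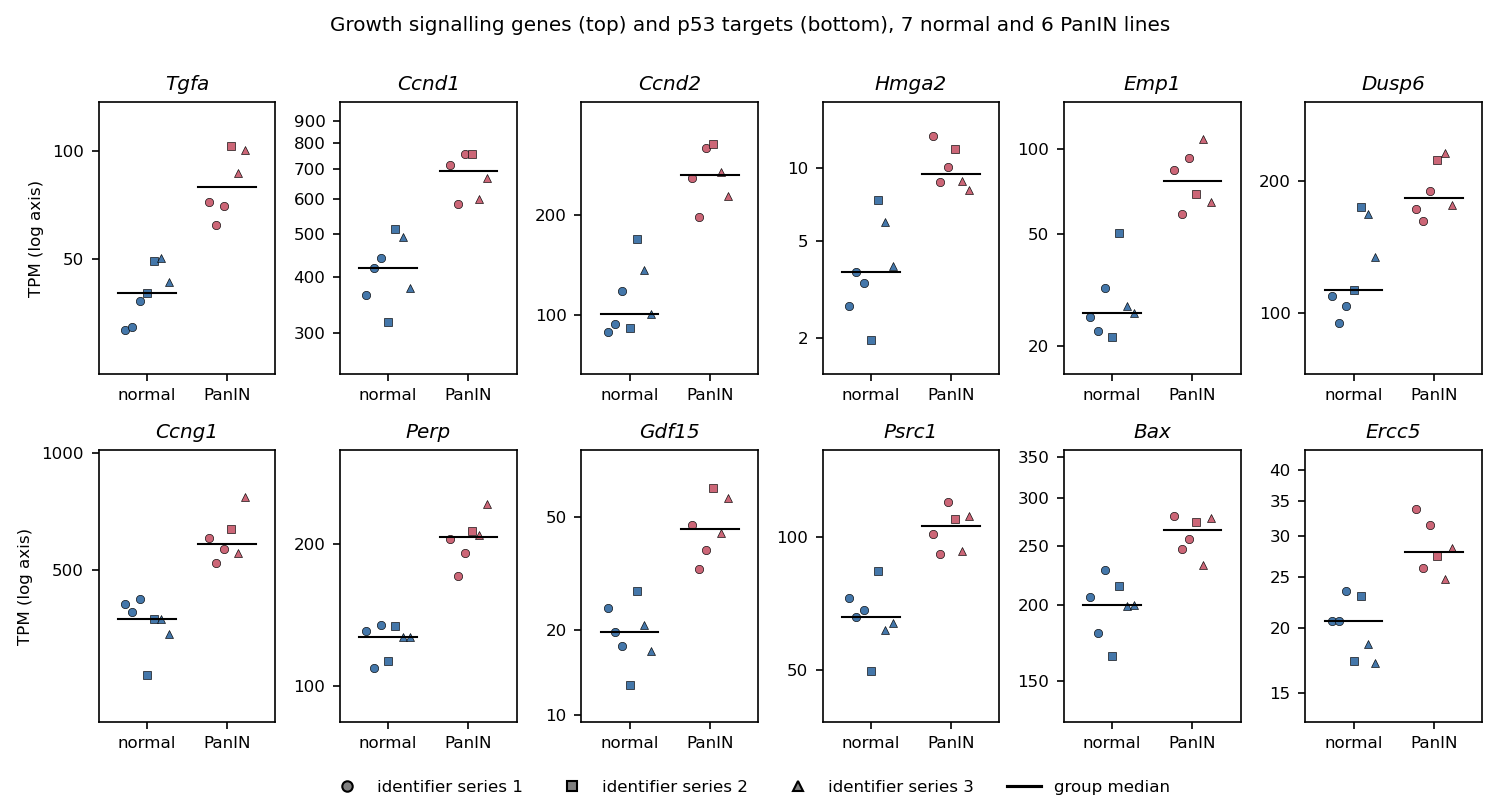
TPM (log axis) of growth signalling genes (top row) and p53 targets (bottom row) in each normal and PanIN line; symbols mark the identifier series and horizontal bars the group medians. In every panel but that of Dusp6 the 6 PanIN lines lie above the 7 normal lines, and the shift is seen in all 3 series. In series 2, PanIN 4 is the only PanIN line.

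Genes of the mitochondrial death pathway moved both ways. In the list of apoptosis regulators and caspases, 3 of 35 members rose and 4 fell. The p53-induced killers Bax and Bbc3, the latter encoding PUMA, were among the risers: Bax rose from 199 ± 21.2 to 261 ± 19.3 TPM (adjusted p = 0.0029) and Bbc3 from 6.399 ± 1.21 to 10.5 ± 1.06 TPM (adjusted p = 0.0151). Both exceeded every normal line in all 6 PanIN lines. Bik, another BH3-only killer, fell from 4.05 ± 1.04 to 1.78 ± 0.769 TPM (adjusted p = 0.00312), and Bcl2a1d, a survival gene with near-identical copies, fell from 4.95 ± 0.948 to 0.697 ± 0.3402 TPM (adjusted p = 1.18e-07). Reads of such copies cannot be assigned with certainty. The survival genes Bcl2l1 and Mcl1 were expressed at 194 ± 27.9 TPM in normal and 214 ± 23.1 TPM in PanIN lines and at 155 ± 17.5 TPM in normal and 149 ± 7.84 TPM in PanIN lines, in that order, and were not called.

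Although D-type cyclins were higher, the machinery of S phase and mitosis was not called. None of 47 DNA replication genes and none of 51 mitosis and kinetochore genes passed the test, in the main fit or in any fit that left out 1 line. The mitosis list had a median of -0.60 in the first identifier series and of 0.32 and 0.29 in the other series. Single lines weighed heavily within both of these. As a mean over the list against the mean of the 13 lines (log2 scale), normal 11 stood at -1.03 and normal 10 at 0.29 in series 2, where PanIN 4 stood at -0.04. In series 3, PanIN 6 stood at 0.61 and PanIN 5 at -0.03. Without normal 11 the median difference of the list over all series was -0.25, and with it -0.07. Beyond cyclins D1 and D2, no other of 31 genes for cyclins, their kinases and inhibitors was called. Also without a call were 50 genes of ribosome biogenesis, 76 mitochondrial ribosomal proteins and 59 replication-dependent histones. Among 78 cytoplasmic ribosomal proteins the best-supported call was Rps27l, itself a p53 target, which rose from 795 ± 57.1 to 1038 ± 107 TPM (adjusted p = 0.00348) with no overlap.

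**Figure D3:**
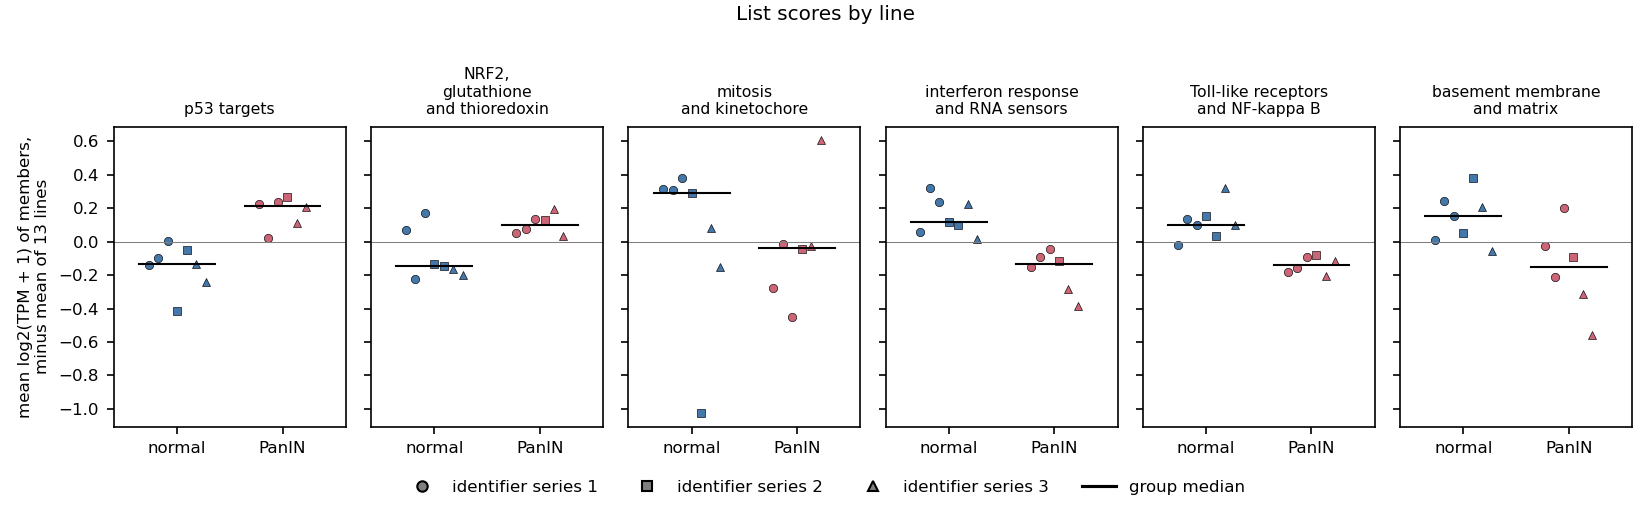
Mean log2(TPM + 1) over the tested members of 6 lists in each line, minus the mean of the 13 lines; symbols mark the identifier series. The p53 score is higher in every PanIN line than in every normal line, and the interferon and Toll-like receptor scores are lower in every PanIN line, while matrix scores overlap and normal 11 stands far below all others in the mitosis list.

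Enzymes that detoxify electrophiles and foreign compounds gave another group of rises. Phase I enzymes oxidize or reduce a compound, phase II enzymes attach glutathione, glucuronate or sulfate, and ABC transporters export the product. Much of phase II is induced by NRF2, which binds antioxidant response elements. To show what such elements look like in the genes called here, upstream stretches of 4 of them follow, 5′ to 3′ on the gene's strand, from RefSeq promoter entries of build GRCm38.p6. The coordinates are of that build and not of mm9, which the deposited values rest on. Capitals mark TGACNNNGC, the core of the antioxidant response element, in Gsta3, Ugdh and Gclm, and TGANTCA, the AP-1 site, in Gstp1. Each was searched on both strands; the AP-1 site reads alike on either strand and forms part of many longer response elements.
Gsta3, chr1:21240419-21240518, plus strand: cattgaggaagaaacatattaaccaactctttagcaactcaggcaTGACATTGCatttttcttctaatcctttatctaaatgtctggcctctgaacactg
Ugdh, chr5:65435920-65436019, minus strand: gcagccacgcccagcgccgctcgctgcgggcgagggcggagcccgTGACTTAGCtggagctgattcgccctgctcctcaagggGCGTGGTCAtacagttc
Gclm, chr3:122245378-122245477, plus strand: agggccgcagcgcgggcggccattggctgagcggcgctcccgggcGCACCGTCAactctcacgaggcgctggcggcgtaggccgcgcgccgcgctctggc
Gstp1, chr19:4037932-4038031, minus strand: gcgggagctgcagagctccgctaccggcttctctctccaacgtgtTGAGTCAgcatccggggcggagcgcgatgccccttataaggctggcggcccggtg

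The first capitals begin 121 bases before the annotated start in Gsta3, 132 in Ugdh, 134 in Gclm and 74 in Gstp1, and Ugdh holds a further match 94 bases before it. Of the 19 risers in the NRF2 list and the glutathione transferase family, 16 had a promoter entry of 300 bases. TGACNNNGC was in the promoters of 5 of the 16 and TGANTCA in 1, while 14.7% and 5.12% of the promoters of tested genes held them. A match is a string of letters and not a shown binding site.

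Glutathione transferases join glutathione to electrophiles and so mark them for export. Of 21 tested members 7 rose (33.3%), none fell, and the median member was higher by 0.37. Gstp1, the pi-class enzyme, ran from 469.9 to 985 TPM (median 794) in normal lines and from 1319.9 to 2607 TPM (median 1602) in PanIN lines. Its lowest PanIN line stood above its highest normal line, and it rose 2.27-fold (log2 change 1.18, SE 0.17, adjusted p = 0.000354). The mu-class gene Gstm1 ran from 69.7 to 177 TPM (median 117) in normal lines and from 203 to 515 TPM (median 342) in PanIN lines, also with no overlap, and rose 2.94-fold (log2 change 1.56, SE 0.28, adjusted p = 0.00195). Of the alpha class, Gsta4, which clears the lipid peroxidation product 4-hydroxynonenal, rose from 1100.3 ± 164 to 1681 ± 224 TPM (adjusted p = 0.00528). Gsta3 rose from 517 ± 102 to 822 ± 93.2 TPM (adjusted p = 0.0117) and the omega-class Gsto1 from 548 ± 74.98 to 867 ± 138 TPM (adjusted p = 0.00144). These 3 showed no overlap between the groups. Gstm2 and Gsta1 rose too, but each resembles a neighbouring copy, and reads can be split between copies. The call of Gstm2 was lost in 9 of 13 fits that each left out 1 line (adjusted p up to 0.0974, without PanIN 5), and that of Gsta1 was lost in 8 of 13 fits that each left out 1 line (adjusted p up to 0.102, without PanIN 5). Leaving out 1 line gave 5 to 7 rises in the family.

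In the wider NRF2, glutathione and thioredoxin list, 12 of 48 members rose and 3 fell. Here 1 line weighed heavily: without PanIN 5 the number of rises was 4. It also moved by more than 1.5 times without normal 6, 11, 12 or 13 or PanIN 4, and ran up to 16. The falls numbered 1 without normal 6, PanIN 5 or PanIN 6. Ugdh, which makes UDP-glucuronate, ran from 35.4 to 69.1 TPM (median 47.1) in normal lines and from 86.2 to 155 TPM (median 103) in PanIN lines, with no overlap, and rose 2.28-fold (log2 change 1.19, SE 0.14, adjusted p = 7.14e-05). Nqo1, a quinone reductase often used as a readout of NRF2, was low in all lines and rose from 1.44 ± 0.585 to 3.33 ± 0.871 TPM (adjusted p = 0.00455). Gsr, which regenerates reduced glutathione, rose from 112 ± 24.3 to 167 ± 22.4 TPM (adjusted p = 0.00603), and the exporter Abcc4 rose from 41.2 ± 6.66 to 67.6 ± 5.47 TPM (adjusted p = 0.000319). Cat, the gene of catalase, rose from 64.5 ± 8.104 to 94.8 ± 14.2 TPM (adjusted p = 0.0182) but lost its call without PanIN 5 (adjusted p = 0.0553). Glrx, a glutaredoxin, went the other way and fell from 35.8 ± 9.92 to 18.95 ± 4.48 TPM (adjusted p = 0.00172). The abundant antioxidant genes Prdx1, at 1611 ± 97.98 TPM in normal and 1764 ± 125 TPM in PanIN lines, and Sod1, at 525 ± 44.1 TPM in normal and 601 ± 35.1 TPM in PanIN lines, were not called. Gclm, the regulatory subunit of the rate-limiting enzyme of glutathione synthesis, was chosen for its promoter and rose from 64.6 ± 15.7 to 85.8 ± 6.68 TPM (adjusted p = 0.0281), a call that was lost in 9 of 13 fits that each left out 1 line (adjusted p up to 0.0662, without PanIN 5).

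**Figure D4:**
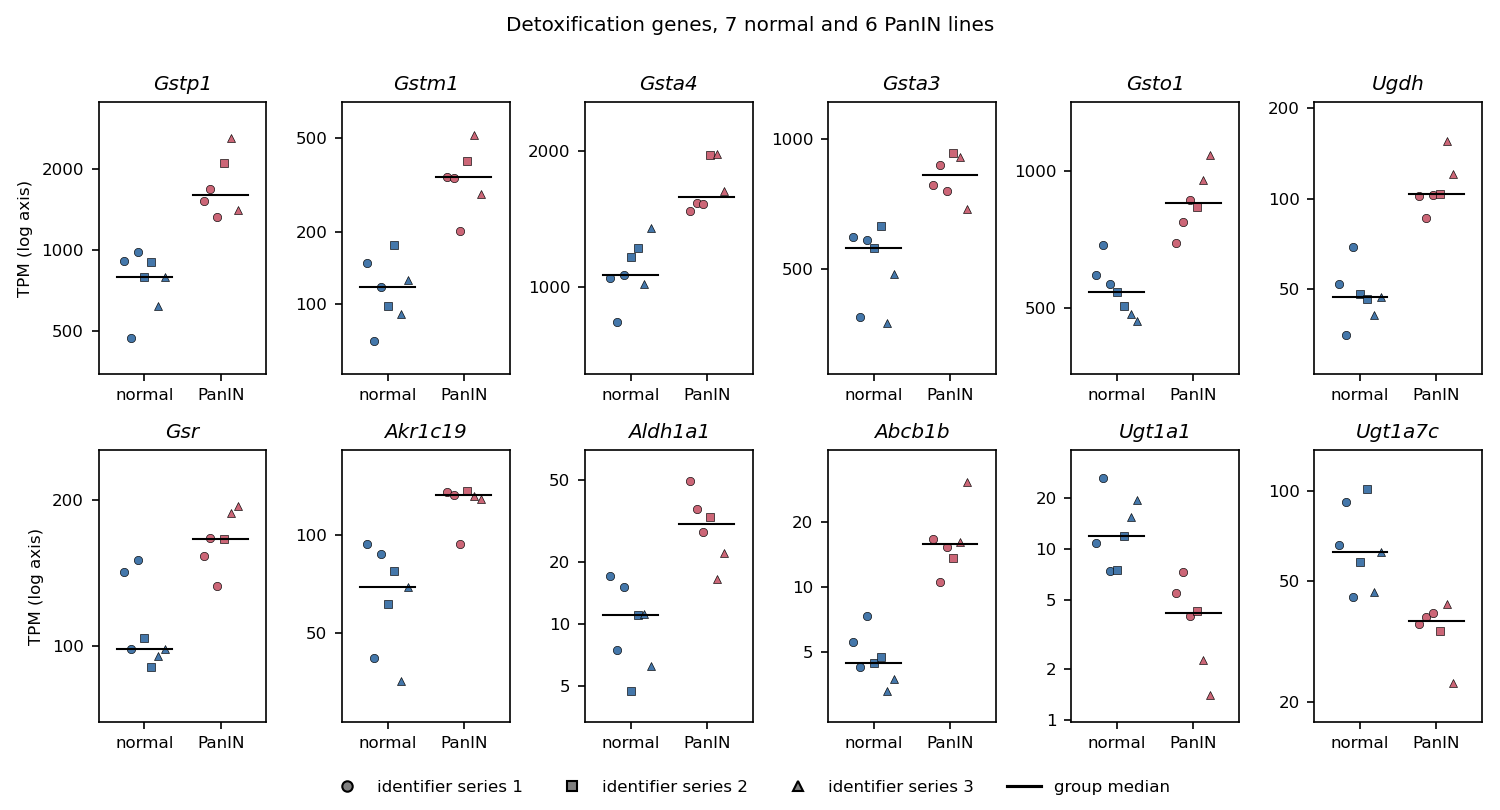
TPM (log axis) of detoxification genes in each normal and PanIN line; symbols mark the identifier series and horizontal bars the group medians. In 10 panels the PanIN lines lie higher; in those of Ugt1a1 and Ugt1a7c they lie lower, and the groups overlap in the panels of Aldh1a1 and Gsr and in no other.

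Some reductases and dehydrogenases of aldehydes were called as well. Of 11 aldo-keto reductases 4 rose and none fell (median 0.32). Akr1c19 ran from 35.5 to 93.4 TPM (median 68.8) in normal lines and from 93.8 to 136 TPM (median 132) in PanIN lines and rose 1.97-fold (log2 change 0.98, SE 0.19, adjusted p = 0.00282), and the groups did not overlap. Akr1c14, low in normal lines, rose from 0.907 ± 0.461 to 5.45 ± 3.33 TPM (adjusted p = 0.000973), and Akr1b8 rose from 118 ± 17.3 to 163 ± 24.5 TPM (adjusted p = 0.0122). Members of the Akr1c cluster are close copies of each other, and their separate values are uncertain to that extent. In the list of aldehyde and retinoid metabolism, 6 of 32 rose and 3 fell, or 1 fell without normal 6, 12 or 13 or PanIN 5 or 6. Aldh1a1, which makes retinoic acid and is used as a progenitor marker, ran from 4.68 to 17.2 TPM (median 11.1) in normal lines and from 16.6 to 49.8 TPM (median 30.7) in PanIN lines and rose 2.85-fold (log2 change 1.51, SE 0.30, adjusted p = 0.00451), with overlap. Its close copy Aldh1a7 rose from 1.05 ± 0.617 to 2.89 ± 0.3004 TPM (adjusted p = 0.0016). Aldh2, the mitochondrial acetaldehyde dehydrogenase, rose from 59.6 ± 9.22 to 96.6 ± 15.3 TPM (adjusted p = 0.00367), and Aldh3b1 rose from 11.6 ± 2.15 to 20.4 ± 3.12 TPM (adjusted p = 0.00708). Adh1, the class I alcohol dehydrogenase, rose from near absence, from 0.523 ± 0.707 to 8.59 ± 5.26 TPM (adjusted p = 0.0096), with a wide spread among PanIN lines. Adh5, the glutathione-dependent formaldehyde dehydrogenase, rose 1.16-fold (adjusted p = 0.00969).

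The transferases of glucuronate and sulfate had falls and no rise, while Ugdh, which makes UDP-glucuronate, rose as given above. Of 15 UDP-glucuronosyl and sulfotransferases none rose and 3 fell, all of the Ugt1a cluster. The family as a whole did not shift: 8 means were higher and 7 lower in PanIN lines, with a median of 0.02. Its members share all exons but the first, so reads of the shared exons can be divided among them. Ugt1a1, the bilirubin transferase, ran from 7.45 to 26.1 TPM (median 11.9) in normal lines and from 1.41 to 7.32 TPM (median 4.21) in PanIN lines and fell 2.93-fold (log2 change -1.55, SE 0.32, adjusted p = 0.00646), and Ugt1a7c fell from 67.2 ± 21.6 to 35.5 ± 6.66 TPM (adjusted p = 0.0103). Neither gene had overlapping groups. Of 6 carboxylesterases and epoxide hydrolases 2 rose and 1 fell (median 0.54), with 1 rise without normal 12, PanIN 4 or PanIN 5. Ces2e, a carboxylesterase, rose from 2.78 ± 1.03 to 8.29 ± 1.72 TPM (adjusted p = 0.00137) and stood at 2.15 ± 1.49 TPM in tumor lines (log2 difference from PanIN lines -1.64, SE 0.23, adjusted p = 0.0016). Ephx4, of the epoxide hydrolase family, fell from 5.97 ± 5.04 to 1.06 ± 0.696 TPM (adjusted p = 0.00305), with normal 6 far above the other normal lines at 17.3 TPM. Among 29 Slco and ABC transporters 5 rose and 2 fell, with 3 rises without normal 12 or PanIN 5. Abcb1b, which encodes a P-glycoprotein that pumps drugs out of cells, ran from 3.3 to 7.31 TPM (median 4.42) in normal lines and from 10.5 to 30.6 TPM (median 15.7) in PanIN lines and rose 3.05-fold (log2 change 1.61, SE 0.22, adjusted p = 0.000213), with no overlap. The cholesterol exporter Abcg1 fell from 1.85 ± 0.984 to 0.64 ± 0.103 TPM (adjusted p = 0.0126).

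Mucus and stomach genes are the textbook marks of PanIN. In the list of mucins and mucus packaging, 15 of 29 members passed the filter, and 2 of these rose and none fell. The rises numbered 1 without normal 6, 10, 11, 12 or 13 or PanIN 1, 2, 4, 5 or 6. Of 13 genes of the mucin family itself 2 were tested, and neither was called. Agr2, a disulfide isomerase needed to fold mucins, ran from 0.1 to 2.82 TPM (median 0.56) in normal lines and from 4.19 to 12.4 TPM (median 5.91) in PanIN lines and rose 4.57-fold (log2 change 2.19, SE 0.42, adjusted p = 0.00331). Tumor lines stood higher still, at 39.4 ± 32.99 TPM (log2 difference from PanIN lines 1.99, SE 0.44, adjusted p = 0.0318). The mucin gene Muc1 stood at 181 ± 23.05 TPM in normal and 203 ± 25.1 TPM in PanIN lines and the trefoil peptide gene Tff2 at 58.8 ± 42.2 TPM in normal and 128 ± 72.9 TPM in PanIN lines, and neither was called. Enzymes that build O-linked sugars on mucins had 4 rises and no fall among 32 members, and 2 rises without normal 5, normal 13, PanIN 4, PanIN 5 or PanIN 6. Gcnt3, the mucin-type branching enzyme of secretory epithelia, ran from 2.14 to 14.5 TPM (median 4.66) in normal lines and from 57.7 to 203 TPM (median 114) in PanIN lines. It rose 15.5-fold with no overlap (log2 change 3.96, SE 0.35, adjusted p = 3.40e-06). Its relative Gcnt1 rose from 1.92 ± 1.29 to 7.03 ± 3.75 TPM (adjusted p = 0.0164) and lost its call without PanIN 5 (adjusted p = 0.0506). The initiating enzyme Galnt2, at 70.6 ± 4.11 TPM in normal and 76.3 ± 5.74 TPM in PanIN lines, and C1galt1, which adds the next sugar, at 74.2 ± 6.43 TPM in normal and 63.7 ± 4.09 TPM in PanIN lines, were not called.

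In the list of gastric and intestinal epithelial genes, 6 of 19 tested rose and 3 fell, and the number of rises was 2 without PanIN 5 and also moved by more than 1.5 times without normal 13, PanIN 1 or PanIN 4. Phgr1, a gene of the intestinal mucosa, ran from 2.15 to 14.1 TPM (median 7.72) in normal lines and from 14.9 to 54.7 TPM (median 32.1) in PanIN lines and rose 3.97-fold (log2 change 1.99, SE 0.34, adjusted p = 0.00135), with no overlap. Vsig1, a junction protein of the gastric epithelium, rose from 0.33 ± 0.212 to 2.403 ± 1.38 TPM (adjusted p = 0.0124). Olfm4, a secreted marker of intestinal crypt stem cells, rose from 12.5 ± 9.45 to 64.6 ± 51.96 TPM (adjusted p = 0.0487), and this call was lost in 11 of 13 fits that each left out 1 line (adjusted p up to 0.137, without PanIN 5). Ceacam1 rose from 7.04 ± 4.26 to 14.5 ± 4.27 TPM (adjusted p = 0.0189) and lost its call without PanIN 5 (adjusted p = 0.0586). Onecut2, a duct and intestinal transcription factor, fell from 22.9 ± 6.15 to 11.96 ± 5.65 TPM (adjusted p = 0.0179), and the other falls were the oxidase genes described with host defence. Ductal fluid secretion had 3 rises among 31 channel and transporter genes. The calcium-activated chloride channel Ano1 rose from 54.1 ± 12.8 to 96.7 ± 14.8 TPM (adjusted p = 0.000496), and the potassium channel Kcnk5 rose from 23.9 ± 2.19 to 34.8 ± 4.44 TPM (adjusted p = 0.0161), both without overlap. Aqp5, a water channel of exocrine glands, rose from 27.1 ± 11.1 to 90.6 ± 50.003 TPM (adjusted p = 0.0182) and lost its call without PanIN 5 (adjusted p = 0.057).

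Central energy metabolism had few calls. Of 55 genes of the TCA cycle and respiratory chain and 42 of glycolysis and the pentose phosphate path, 1 each was called (1.82% and 2.38%). Of 47 lipid synthesis genes 2 were called (4.26%). These shares lay below the 6.78% over all genes. The single calls of the first lists were lost in 2 and 8 of 13 fits that each left out 1 line, in that order. Fatty acid activation and oxidation had 4 rises and 4 falls among 45, with 2 rises without normal 6, 11 or 13 or PanIN 4 or 5. Acsm3, a mitochondrial medium-chain acyl-CoA synthetase, ran from 0.07 to 1.01 TPM (median 0.23) in normal lines and from 3.91 to 13.1 TPM (median 7.08) in PanIN lines and rose 6.18-fold (log2 change 2.63, SE 0.39, adjusted p = 0.00037). Acadl, the mitochondrial long-chain dehydrogenase, fell from 43.4 ± 5.89 to 32.3 ± 2.66 TPM (adjusted p = 0.0103). Acot1, a cytosolic acyl-CoA thioesterase with near-identical copies, fell from 32.4 ± 2.74 to 17.9 ± 4.59 TPM (adjusted p = 0.000962). Gpam, which commits fatty acids to triglyceride, rose from 16.8 ± 2.26 to 27.9 ± 5.65 TPM (adjusted p = 0.00322). The zinc and iron transporters Slc39a8 and Slc39a14 rose, Slc39a8 from 6.35 ± 2.17 to 13.8 ± 1.93 TPM (adjusted p = 0.000944) and Slc39a14 from 7.64 ± 1.27 to 12.1 ± 2.21 TPM (adjusted p = 0.0119). Slc40a1, the gene of ferroportin, which exports iron from cells, fell from 20.7 ± 2.03 to 14.1 ± 3.05 TPM (adjusted p = 0.0153). Steap1, of a family of metalloreductases, rose from 12.1 ± 2.37 to 18.5 ± 3.66 TPM (adjusted p = 0.0115). In arachidonate metabolism 4 of 20 members fell and 1 rose, with a median of 0.09. The riser was Ephx1, the microsomal epoxide hydrolase, which rose from 316 ± 37.4 to 452 ± 69.8 TPM (adjusted p = 0.0231) and lost its call without normal 12, PanIN 4 or PanIN 5. Hpgd, which inactivates prostaglandin E2, fell from 15.4 ± 4.91 to 6.12 ± 1.53 TPM (adjusted p = 0.00645), and Ptger4, a receptor for it, fell from 5.02 ± 1.601 to 2.11 ± 0.2898 TPM (adjusted p = 0.00151).

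Several host defence lists had more falls than rises. The plasma and acute phase proteins, usually made by the liver and by inflamed epithelia, had 5 falls and 2 rises among 24 tested. The list did not move alike in the 3 identifier series, with medians of 0.11, -0.15 and -0.72. As a mean over the list against the mean of the 13 lines, PanIN 6, of series 3, stood lowest at -0.91. The number of falls was 2 without normal 6, 12 or 13 or PanIN 5 or 6, and it moved by more than 1.5 times without PanIN 4 as well. Gc, the vitamin D-binding protein, ran from 82.1 to 654 TPM (median 287) in normal lines and from 3.93 to 77.95 TPM (median 20) in PanIN lines. The groups did not overlap, and Gc fell 12.8-fold (log2 change -3.67, SE 0.62, adjusted p = 0.00135). Crp, the C-reactive protein, fell from 5.06 ± 2.64 to 0.538 ± 0.3502 TPM (adjusted p = 0.000228). Saa3, an acute phase serum amyloid, fell from 13.9 ± 14.5 to 1.58 ± 1.33 TPM (adjusted p = 0.0397), a call that was lost in 9 of 13 fits that each left out 1 line (adjusted p up to 0.103, without PanIN 5). Apoc2, a lipoprotein component, rose from 2.83 ± 2.42 to 20.6 ± 14.7 TPM (adjusted p = 0.00179). Lcn2, a siderophore-binding protein and the most abundant of the list, stood at 2591 ± 693 TPM in normal and 1414 ± 504 TPM in PanIN lines and was not called (adjusted p = 0.283). Among 14 complement genes 2 rose and 2 fell, and the median was 0.15, -0.16 and -0.97 within the 3 series. Cd55, which shields a cell from complement by breaking down its convertases, ran from 4.05 to 7.32 TPM (median 6.5) in normal lines and from 10.1 to 20.2 TPM (median 13.8) in PanIN lines and rose 2.28-fold (log2 change 1.19, SE 0.16, adjusted p = 0.000176). C4bp, a soluble inhibitor of the classical pathway, fell from 16.7 ± 11.1 to 3.87 ± 1.15 TPM (adjusted p = 0.00455). Both genes showed no overlap. C3, the central component, stood at 176 ± 68.2 TPM in normal and 71.6 ± 36.01 TPM in PanIN lines and did not pass the test (adjusted p = 0.116).

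Several receptors for inflammatory cytokines fell. In the list of interleukins, their receptors and the TNF family, 8 of 44 fell (18.2%) and 4 rose. Without normal 6, normal 10, PanIN 4 or PanIN 5 the falls numbered 5, and without normal 6, 11 or 12 or PanIN 5 or 6 the rises numbered 2. Il1r1, the signalling receptor of interleukin 1, ran from 31.7 to 58.9 TPM (median 40.4) in normal lines and from 13.7 to 19.7 TPM (median 16.7) in PanIN lines. All PanIN lines lay below all normal lines, and Il1r1 fell 2.4-fold (log2 change -1.26, SE 0.17, adjusted p = 0.000228). Il1rn, the antagonist that competes for this receptor, ran from 64.9 to 139.6 TPM (median 75.3) in normal lines and from 27.4 to 44.7 TPM (median 34.4) in PanIN lines and fell 2.39-fold (log2 change -1.26, SE 0.16, adjusted p = 0.000175), also with no overlap. Osmr, the receptor of oncostatin M, fell from 8.79 ± 1.72 to 3.72 ± 1.25 TPM (adjusted p = 0.004), and Tnfrsf1b, the second TNF receptor, fell from 9.43 ± 1.16 to 5.25 ± 1.18 TPM (adjusted p = 0.00175). Tnfrsf11b, the RANKL decoy osteoprotegerin, fell from 10.3 ± 12.1 to 1.44 ± 0.738 TPM (adjusted p = 0.00749). Tnfrsf21, a death receptor, rose from 17.8 ± 2.197 to 26.9 ± 5.97 TPM (adjusted p = 0.0122).

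Of 34 genes of Toll-like receptors and NF-kappa B, 5 fell, none rose, and 32 had a lower mean in PanIN lines (median -0.23). Tnfaip3, which encodes the NF-kappa B inhibitor A20, fell from 29.6 ± 6.55 to 19.5 ± 2.18 TPM (adjusted p = 0.0189). Nod1, a sensor of bacterial peptidoglycan, fell from 1.96 ± 0.322 to 0.987 ± 0.375 TPM (adjusted p = 0.0103), and Map3k8, a kinase downstream of Toll-like receptors, fell from 1.43 ± 0.352 to 0.803 ± 0.1404 TPM (adjusted p = 0.0116). Cd14, a co-receptor for lipopolysaccharide, stood at 343 ± 69.8 TPM in normal and 242 ± 36.1 TPM in PanIN lines and was not called. Among 15 chemokines 1 was called, the low-level Cxcl15, which rose from 0.264 ± 0.0759 to 1.42 ± 0.578 TPM (adjusted p = 0.0216). The abundant Cxcl5, a chemokine for neutrophils, stood at 3317 ± 1013 TPM in normal and 2545 ± 485 TPM in PanIN lines, and Ccl2, one for monocytes, at 319 ± 204 TPM in normal and 138 ± 97.03 TPM in PanIN lines; their spreads were wide and neither passed. In the Toll-like receptor list 3 genes fell without normal 6, normal 12, PanIN 1 or PanIN 5.

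**Figure D5:**
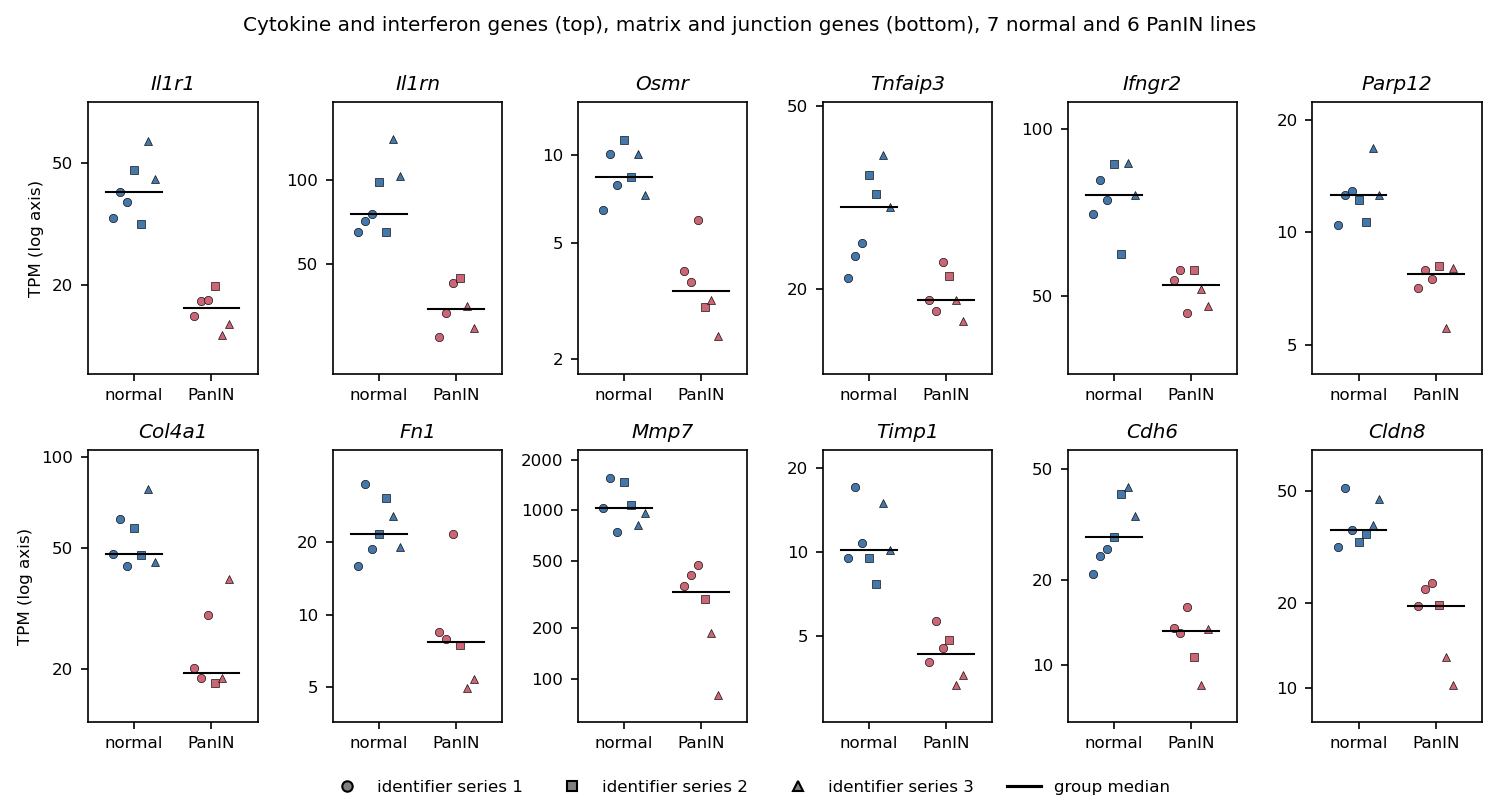
TPM (log axis) of cytokine receptor and interferon response genes (top row) and of matrix and junction genes (bottom row) in each normal and PanIN line; symbols mark the identifier series and horizontal bars the group medians. PanIN lines lie lower throughout, without overlap except for Fn1 and Tnfaip3.

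Interferon signalling raises sensors of viral RNA and antigen presentation, and also operates at a low level in unstimulated epithelium. Of 44 tested genes 9 fell (20.5%, against 3.68% of all genes) and none rose. The mean was lower in PanIN lines for 40 of them, and the median was -0.29, although most single members missed the test. Without PanIN 5 the number of falls was 5. Ifngr2, the second chain of the interferon gamma receptor, ran from 59.5 to 86.8 TPM (median 76.1) in normal lines and from 46.6 to 55.8 TPM (median 52.4) in PanIN lines and fell 1.46-fold (log2 change -0.55, SE 0.10, adjusted p = 0.00282), with no overlap. Ifih1, the RNA sensor MDA5, fell from 7.66 ± 0.723 to 5.13 ± 0.517 TPM (adjusted p = 0.0191). The PARP family, which attaches ADP-ribose to proteins, had 4 falls among 12 members, and all 12 means were lower in PanIN lines. Its interferon-inducible members Parp9, Parp12 and Parp14 fell, Parp12 from 12.6 ± 2.11 to 7.37 ± 0.976 TPM (adjusted p = 0.00261), Parp14 from 5.91 ± 0.702 to 3.25 ± 0.559 TPM (adjusted p = 0.00966) and Parp9 from 15.6 ± 2.09 to 10.5 ± 1.23 TPM (adjusted p = 0.015). These genes count in both lists. Parp8, at 27.3 ± 8.21 TPM in normal and 15.8 ± 5.32 TPM in PanIN lines, was not called.

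For antigen presentation, 4 of 23 members fell and none rose (median -0.32). Without PanIN 5 the falls numbered 1, and without PanIN 6 they also moved by more than 1.5 times. Tap2, a subunit of the peptide transporter into the endoplasmic reticulum, ran from 3.68 to 4.98 TPM (median 4.62) in normal lines and from 1.67 to 3.14 TPM (median 2.75) in PanIN lines and fell 1.53-fold (log2 change -0.61, SE 0.14, adjusted p = 0.0118), with no overlap. The immunoproteasome subunits Psmb8, which fell from 7.22 ± 2.2998 to 3.01 ± 2.099 TPM (adjusted p = 0.0215), and Psmb9, which fell from 2.75 ± 0.946 to 1.25 ± 0.345 TPM (adjusted p = 0.0192), depended on single lines. Psmb9 lost its call without PanIN 5 (adjusted p = 0.0506), and Psmb8 lost it in 2 of 13 fits that each left out 1 line (adjusted p up to 0.0635, without PanIN 5). B2m, the light chain of class I molecules, stood at 640.3 ± 146 TPM in normal and 450.4 ± 34.9 TPM in PanIN lines and H2-K1, a heavy chain, at 261 ± 42.04 TPM in normal and 225 ± 21.2 TPM in PanIN lines. Neither was called, and H2 genes resemble each other closely enough to share reads.

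Of 19 antimicrobial genes and secreted protease inhibitors 4 fell and 1 rose (median -0.19). The dual oxidase Duox2, which releases hydrogen peroxide at mucosal surfaces, ran from 7.47 to 31.8 TPM (median 13.9) in normal lines and from 2.36 to 6.19 TPM (median 3.44) in PanIN lines and fell 3.13-fold (log2 change -1.64, SE 0.32, adjusted p = 0.00312). Its maturation factor Duoxa2, the neighbouring gene, ran from 9.51 to 37.6 TPM (median 17.2) in normal lines and from 4.22 to 8.09 TPM (median 4.79) in PanIN lines and fell 3.09-fold (log2 change -1.63, SE 0.29, adjusted p = 0.00193). Neither gene had overlapping groups. Ltf, which encodes the iron-binding lactoferrin, fell from 142 ± 103 to 33.6 ± 20.1 TPM (adjusted p = 0.0177), and Cstb, a cathepsin inhibitor, fell from 238 ± 13.3 to 190.4 ± 10.8 TPM (adjusted p = 0.000917). The riser was Rnase4, a secreted ribonuclease whose locus overlaps that of a related ribonuclease, and it rose from 2.05 ± 1.06 to 4.56 ± 1.19 TPM (adjusted p = 0.00645). Leukocyte markers moved with these lists: the summed TPM of 20 marker genes was 5.31 to 8.80 in normal lines and 3.07 to 4.12 in PanIN lines. Cd3e was at 0 in every line, Ptprc reached at most 0.09 TPM and Itgam 0.28 TPM, while Csf1r lay at 1.25 to 5.57 TPM in normal and 0.40 to 1.22 TPM in PanIN lines. The part of these markers in the defence results was not tested.

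Genes of the basement membrane and matrix formed a further group of falls. Of 32 tested, 8 fell (25%) and none rose, and without PanIN 5 the falls numbered 5. Col4a1, a chain of the collagen network under all epithelia, ran from 43.5 to 77.97 TPM (median 47.7) in normal lines and from 17.99 to 39.6 TPM (median 19.4) in PanIN lines. The groups did not overlap, and Col4a1 fell 2.27-fold (log2 change -1.18, SE 0.22, adjusted p = 0.0024). Its partner chain Col4a2, transcribed from the same bidirectional promoter, fell from 23.04 ± 4.47 to 12.01 ± 5.08 TPM (adjusted p = 0.0134). Fn1, fibronectin, fell from 23.9 ± 6.98 to 9.305 ± 6.23 TPM (adjusted p = 0.00389) and Bgn, the proteoglycan biglycan, fell from 16.7 ± 9.07 to 3.53 ± 2.62 TPM (adjusted p = 0.00665). In Fn1 the group ranges overlapped through PanIN 3, at 21.7 TPM. Plod1, which hydroxylates collagen lysines, fell from 5.93 ± 1.09 to 4.19 ± 0.389 TPM (adjusted p = 0.0177). Cd44, the hyaluronan receptor, fell from 137 ± 37.9 to 81.5 ± 18.1 TPM (adjusted p = 0.0171) and lost its call without PanIN 5 (adjusted p = 0.0523). Among 26 metalloproteases, other proteases and their inhibitors, 2 rose and 3 fell. The falls numbered 2 without normal 6, 7 or 11 or PanIN 1, 2, 4, 5 or 6, and 5 without PanIN 3. Mmp7, a matrix metalloprotease of epithelia, ran from 741 to 1566 TPM (median 1035) in normal lines and from 80.7 to 475 TPM (median 327) in PanIN lines and fell 4.05-fold (log2 change -2.02, SE 0.41, adjusted p = 0.00493), with no overlap. The inhibitor Timp1 fell from 11.4 ± 3.36 to 4.34 ± 0.848 TPM (adjusted p = 0.000933) while Timp3 rose from 219 ± 50.6 to 371 ± 79.3 TPM (adjusted p = 0.0192). Adam9, a membrane-bound sheddase, rose from 77.5 ± 6.45 to 114 ± 5.85 TPM (adjusted p = 7.72e-05).

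Fibroblast markers moved in the same direction as the matrix genes. Their summed level over 18 genes was 38.8 to 90.1 TPM in normal and 8.92 to 45.5 TPM in PanIN lines, of which podoplanin, a gene that epithelia express as well, made up most. The defining fibroblast genes were at or near 0: Col3a1 was 0 in every line, Col1a1 reached at most 0.04 TPM and Pdgfra 0.05 TPM.

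Cell contacts changed member by member. Of 19 genes of cadherins and mesenchymal transition 4 fell and none rose, with 2 falls without normal 6, 12 or 13 or PanIN 1, 4, 5 or 6. Cdh6, a kidney-type cadherin, ran from 21.01 to 42.9 TPM (median 28.5) in normal lines and from 8.46 to 16.1 TPM (median 13.2) in PanIN lines and fell 2.35-fold (log2 change -1.23, SE 0.18, adjusted p = 0.000345), with no overlap. The call of Epcam, an epithelial adhesion molecule that fell from 430.5 ± 44.9 to 369 ± 15.6 TPM (adjusted p = 0.0334), was lost in 7 of 13 fits that each left out 1 line (adjusted p up to 0.0779, without PanIN 6). Among 29 tight junction genes 1 rose and 2 fell. Cldn8, a sealing claudin, fell from 38.9 ± 7.38 to 18.01 ± 5.31 TPM (adjusted p = 0.00483), Ildr2, a relative of angulin, fell from 5.56 ± 1.24 to 1.08 ± 1.18 TPM (adjusted p = 0.000204), and Cldn12 rose from 38.5 ± 3.51 to 49.9 ± 3.08 TPM (adjusted p = 0.00175). Keratins and desmosomes had 2 rises and 2 falls among 25. Krt23, a stress-inducible keratin, ran from 26.8 to 76.3 TPM (median 50.5) in normal lines and from 111 to 128 TPM (median 122) in PanIN lines and rose 2.3-fold (log2 change 1.201, SE 0.18, adjusted p = 0.000562), and the groups did not overlap. The desmosomal cadherin Dsc2 fell from 8.4 ± 2.13 to 2.86 ± 0.496 TPM (adjusted p = 8.72e-05). The simple epithelial keratins Krt8, at 3393 ± 784 TPM in normal and 2667 ± 504 TPM in PanIN lines, and Krt18, at 3246 ± 627 TPM in normal and 3002 ± 283 TPM in PanIN lines, were not called. Of 36 integrin and focal adhesion genes 1 rose and 2 fell, and each of these 3 calls was lost in several fits that left out 1 line. Of 41 surface and progenitor markers of ducts 5 rose and 3 fell (median -0.10). Without PanIN 5, 3 rose and none fell, and the rises also moved by more than 1.5 times without normal 13, PanIN 1 or PanIN 4. Procr, the protein C receptor, rose from 7.04 ± 1.98 to 19.9 ± 4.801 TPM (adjusted p = 0.000266) without overlap, and Ly6d rose from 117 ± 42.6 to 270.5 ± 102 TPM (adjusted p = 0.00656).

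Transcription factors of the pancreas and duct had 2 rises and 3 falls among 30, of which the fall of Onecut2 alone kept its call in every fit that left out 1 line. Among ETS, KLF and AP-1 factors 2 of 41 rose and 2 fell. Elf5, an ETS factor of glandular epithelium, ran from 6.65 to 16.5 TPM (median 13.2) in normal lines and from 0.76 to 6.26 TPM (median 3.23) in PanIN lines and fell 3.34-fold (log2 change -1.74, SE 0.33, adjusted p = 0.00268). Klf15 rose from 1.81 ± 0.673 to 4.07 ± 0.867 TPM (adjusted p = 0.0117), and Mecom, the EVI1 locus, rose from 1.88 ± 1.05 to 4.798 ± 1.12 TPM (adjusted p = 0.00439) and stood higher in tumor lines, at 10.1 ± 3.82 TPM (log2 difference from PanIN lines 0.90, SE 0.22, adjusted p = 0.0469). Of 28 nuclear receptors 3 rose and 2 fell. Vdr, the vitamin D receptor, fell from 5.15 ± 0.985 to 2.24 ± 0.449 TPM (adjusted p = 0.000184), and Nr2f2, also known as COUP-TFII, fell from 6.45 ± 1.11 to 3.35 ± 0.432 TPM (adjusted p = 0.000202). Nr1h4, the bile acid receptor FXR, rose from 3.78 ± 1.08 to 8.33 ± 2.56 TPM (adjusted p = 0.0143). Esrra, a regulator of mitochondrial genes, rose from 41.2 ± 4.55 to 52.4 ± 3.73 TPM (adjusted p = 0.00706). Vdr, Nr2f2 and Esrra had groups without overlap.

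The S100 family of small calcium-binding proteins had 5 rises and no fall among 13 tested members (median 0.42), and 3 rises without PanIN 4 or PanIN 5. S100a6, abundant in ducts, ran from 1047 to 2031 TPM (median 1679.7) in normal lines and from 2019 to 3279 TPM (median 2913) in PanIN lines and rose 1.71-fold (log2 change 0.78, SE 0.16, adjusted p = 0.00455), with overlap. S100a13, which helps release FGF1, rose from 28.3 ± 4.26 to 48.1 ± 5.799 TPM (adjusted p = 0.000522), and S100a7a, a psoriasin-type gene close to absent in normal lines, rose from 0.884 ± 0.554 to 15.1 ± 9.58 TPM (adjusted p = 0.00017). S100a11, at 876 ± 129 TPM in normal and 737 ± 83.9 TPM in PanIN lines, was not called.

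Further genes with large and non-overlapping changes belonged to none of the pathway lists. Klhl13, an adaptor of a cullin ubiquitin ligase, ran from 12.1 to 77.2 TPM (median 37.2) in normal lines and from 88.5 to 132 TPM (median 111) in PanIN lines and rose 2.85-fold (log2 change 1.51, SE 0.38, adjusted p = 0.0198). Slc26a2, a sulfate transporter, rose from 18.3 ± 7.18 to 42.2 ± 8.75 TPM (adjusted p = 0.00149), and Bche, butyrylcholinesterase, rose from 9.52 ± 1.497 to 24.1 ± 4.499 TPM (adjusted p = 0.00012). Pcsk6, a convertase that activates growth factors of the TGF-beta family, rose from 11.5 ± 2.68 to 34.4 ± 6.44 TPM (adjusted p = 8.72e-05). Ano3, a TMEM16 family member, rose from 5.29 ± 2.19 to 16.2 ± 5.17 TPM (adjusted p = 0.00528) and stood at 3.65 ± 2.37 TPM in tumor lines (log2 difference from PanIN lines -1.99, SE 0.31, adjusted p = 0.00289). Scel, sciellin of the cornified envelope, rose from 3.39 ± 1.51 to 10.2 ± 4.62 TPM (adjusted p = 0.006), and Gpt, alanine aminotransferase, rose from 3.47 ± 0.782 to 9.54 ± 3.26 TPM (adjusted p = 0.00137). On the falling side stood Nfe2l3, an NRF2 relative, which fell from 7.17 ± 2.99 to 2.02 ± 1.31 TPM (adjusted p = 0.00175). Gde1, a glycerophosphodiester phosphodiesterase, fell from 20.3 ± 6.299 to 6.24 ± 1.902 TPM (adjusted p = 0.000236), Gda, guanine deaminase, fell from 8.66 ± 3.89 to 2.56 ± 0.651 TPM (adjusted p = 0.000442), and the phospholipid flippase gene Atp10b fell from 18.1 ± 8.73 to 5.73 ± 1.89 TPM (adjusted p = 0.000852). Flrt2, an adhesion receptor, fell from 10.4 ± 2.75 to 3.38 ± 1.82 TPM (adjusted p = 0.000644). Pilrb1, an immunoglobulin-type receptor, ran from 9.6 to 33.2 TPM (median 19.4) in normal lines and from 1.62 to 5.52 TPM (median 4.35) in PanIN lines and fell 3.79-fold (log2 change -1.92, SE 0.26, adjusted p = 0.000202).

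The authors' deposited table holds a comparison of the same groups with an adjusted p for 12467 of the tested genes. It gives 1310 of them below 0.05, of which 818 were called here. These are 62.4% of the genes in the authors' deposited table below 0.05 and 96.6% of the genes called here, and none had the opposite sign.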

How the data were processed

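RNA-seq values of 13 of the 19 mouse organoid lines were compared, 6 PanIN and 7 normal, with groups taken from the labels. Per the labels' protocols, total RNA was depleted of ribosomal RNA and made into strand-marking libraries. The submitters' processing notes name build mm9, Bowtie 1.1.0, RSEM 1.2.11, FastQC, DESeq and DESeq2 1.4.1; which annotation was used is not given there. The authors' deposited table gives TPM per line and gene. Per the file headers, it also holds the authors' base mean (a signal averaged over lines), log2 fold change with its SE, test statistic (a score), p-value and adjusted p-value. Columns of other samples numbered 0. TPM keeps no depth, so no counting interval is given.

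The test was limma 3.58.1 (R 4.3.3) on log2(TPM + 1): 1 mean per group over all 19 lines, eBayes with trend, two-sided, Benjamini-Hochberg adjustment over 12500 genes. Folds are on this log2(TPM + 1) scale and understate changes of low genes. A further 11 expressed rows without a comparison by the authors, mostly with mitochondrial names, took 22.6% to 28.6% of TPM in a normal or PanIN line and 16.3% to 25.4% in a tumor line. On simulated data (3 sets of 12500 genes, 200 changed) 93.3% of changes of 1 on the log2 scale and 57.0% of 0.5 were called, with 5.20% false calls. Whether any lines came from the same mouse is not in the labels; the p-values reflect line-to-line spread.

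The groups and the 57 lists and 62 families were chosen with earlier results of these data known, and so was the rule for naming genes. It took from each described list up to 8 called members with the smallest p and up to 3 uncalled members with the highest TPM. It also took 25 genes per direction with the largest non-overlapping change and a mean of at least 5 TPM. Gclm and the cell type markers were added outside it. Some alleles and genes that the rule selects are not reported here. Other software was jsonlite 2.0.0, data.table (version 1.17.8), Python 3.11.15 and matplotlib 3.10.9. Alternatives were another pseudocount (0.1 or 5), filter, scaling, variance prior or line weights, terms for sex, series or line number, and each line left out.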

Additional observations from a re-analysis of the deposited data

Results flagged for a closer look

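In some groups 1 line stood far from the others on the log2(TPM + 1) scale by Dixon's criterion, which chance meets in about 1 of 20 groups. Of 360 groups tested for the genes named here, 16 met it, no more than that rate would give. Each value below is a level in TPM.

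Normal 6 stood apart in 7 of these. It was higher than the other normal lines in Ephx4 (17.3 TPM, others 3.11 to 5.28), Gda (17.1, others 5.49 to 8.99), Gde1 (33.8, others 15.7 to 21.7), Fzd1 (16.5, others 6.91 to 9.74), Acot1 (38.4, others 30.1 to 32.4) and Agr2 (2.82, others 0.10 to 0.76). It was lower in S100a13, at 19.9 TPM where the other normal lines had 27.8 to 33.5. Normal 10 held the highest Acsm3 level of its group, 1.01 TPM against at most 0.37 in the others.

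Among PanIN lines, PanIN 3 was nearest to the normal lines in several genes that fell: Wnt7a was at 3.46 TPM there and at 0.81 to 1.35 in the other PanIN lines, Fn1 at 21.7 against 4.92 to 8.46, and Fzd1 at 7.39 against 3.82 to 4.76. It was also low in Akr1c19, at 93.8 TPM where the others had 129 to 136. PanIN 6 was low in B2m (385 TPM, others 446 to 480.03) and in Ugt1a7c (23.1 TPM, others 34.4 to 42.2) and high in Ildr2 (3.49 TPM, others 0.52 to 0.67). PanIN 5 had the lowest Parp12 level, 5.53 TPM against 7.10 to 8.10. The directions of all these genes between PanIN and normal lines were the same in every alternative fit that tested them.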

How the results depend on the processing

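The number of genes called (847, of which 387 higher and 460 lower) fell to 535 with a filter at 5 TPM (291 higher, 244 lower) and ran from 496 without PanIN 5 to 868 without PanIN 3 when 1 line was left out (236 to 416 higher, 260 to 479 lower). Line weights gave 588 genes higher. The other planned settings kept each count within 1.5 times. With line number as a replicate block, which leaves 4 residual degrees of freedom, 258 genes were called, 74 higher and 184 lower. The numbers do not pair lines: normal and PanIN lines share 2 numbers, with correlations of their deviations of 0.07 for number 5 and -0.25 for number 6. Of 152 named genes called, 36 kept the call in every setting and 137 in every fit that left out 1 line, and none changed direction. The block ended 113 of these calls, leaving out PanIN 5 ended 15, and no other setting more than 7. Plk2, not called, changed sign with line weights (log2 difference 0.016). The calls of Agr2, Axin2, Cxcl15, Olfm4 and Vsig1 were lost with a pseudocount of 5. Of 1430 list medians under the alternatives, 1408 moved by less than the spread between lines. In lists with 3 or fewer calls, counts changed by up to 4 when 1 line was left out. The causes of these changes were not tested. Depth cannot be read from TPM, so the error of low values is not known beyond the spread between lines.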
